A study of Arabidopsis thaliana with 48 samples.

Results

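In Arabidopsis thaliana, 10 genes encode the phytochromes PHYA to PHYE, the cryptochromes CRY1 to CRY3 and the phototropins PHOT1 and PHOT2, and their transcripts were counted in leaves. The members were fixed by locus name, with earlier results of these data known, and all 10 were found among the 33602 loci counted. All 10 passed the filter on low counts in every fit. Phytochromes are red and far-red light receptors that move into the nucleus when activated; the PHYA protein is light-labile and PHYB is the main light-stable form. CRY1 and CRY2 are blue light receptors of seedling growth and flowering, whereas CRY3 is a DASH-type cryptochrome of chloroplasts and mitochondria that repairs single-stranded DNA. Phototropins are blue light receptor kinases of the plasma membrane that steer phototropism, stomatal opening and chloroplast movement, with PHOT2 needed for chloroplasts to avoid strong light.

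Plants of the ecotype Columbia were harvested when 6 weeks old, after 2 weeks at their light level under a 10 h photoperiod with 23 °C by day and 5 °C by night, which all groups shared. Light is given as a photon flux density. In 2 groups, plants grown at 100 µmol per square metre per second (light 100) were moved to 700 for about 20 h, and these groups carry the labels day 0.6 and day 2.57. In 4 groups, plants had grown at light 100, 250, 450 or 700 and carry the label day 0.583. The 6 diurnal groups came from light 250, with labels of days 0.083, 0.25, 0.375, 0.625, 0.75 and 0.916. The labels do not give the moment from which days are counted, and day 2.57 does not obviously match a step of about 20 h, so the days serve as names and the time spent at light 700 is not known. Each group had 2 replicates, made by pooling at random the separately extracted RNA of 4 to 6 plants, so p-values measure only the spread between such pools. Light level, time of sampling and the step are the treatments named in the labels.

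Total counts ran from 20418095 to 36331053 per replicate. The summed level of 5 leaf markers was 20274 to 53179 CPM, counts scaled to library size, over the 24 replicates. The summed level was 3.56 to 42.0 CPM for 4 root markers, 1.01 to 2.98 CPM for 4 flower markers, 0 to 0.221 CPM for 2 seed markers and 31.3 to 75.0 CPM for 2 guard cell markers. Among root markers COBL9 and EXPA7 reached at most 0.140 and 0.0663 CPM. The other root markers were higher, with 1.13 to 37.5 CPM for PYK10 and 1.36 to 9.99 CPM for AT2G38940. Leaves hold many cell types, and in such RNA fewer cells of a type and less RNA per cell cannot be told apart.

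In the RefSeq annotation of TAIR10.1, the phytochrome genes lie at chr1:3095160-3100819 (PHYA, AT1G09570, minus strand), chr2:8139756-8144461 (PHYB, AT2G18790, plus strand), chr5:14007812-14011848 (PHYC, AT5G35840, plus strand), chr4:9195247-9199840 (PHYD, AT4G16250, minus strand) and chr4:10042137-10046346 (PHYE, AT4G18130, minus strand). The cryptochrome genes lie at chr4:5723651-5727268 (CRY1, AT4G08920, plus strand), chr1:1185512-1188696 (CRY2, AT1G04400, minus strand) and chr5:8535258-8538211 (CRY3, AT5G24850, minus strand). The phototropin genes lie at chr3:16816721-16824210 (PHOT1, AT3G45780, plus strand) and chr5:23523825-23533111 (PHOT2, AT5G58140, plus strand). PHYB and PHYD were the most alike in sequence, with 81.0% identity over 3312 aligned bases of transcript. CRY1 and CRY2 shared 69.9% over 836 bases, and PHOT1 and PHOT2 shared 68.2% over 1530 bases. Apart from genes that overlap a member, none of the longest matches kept for each member reached 85% identity across 100 bases or more. Shorter matches were not all kept, so they were not all examined. PHYE overlaps AT4G18140 on its own strand, and PHOT2 overlaps AT5G58150 on the opposite strand over 2760 bases, and neither the labels nor the headers say whether counting used strand, so its counts can include reads of that gene.

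The 250 bases before the annotated start were read from RefSeq for 9 of the genes, because the members differed in how they moved with time of day and light. The G-box CACGTG, a palindrome that bHLH and bZIP factors of light signalling can bind, occurred before PHYB at positions -146 and -111 and before PHYD at -75, counted from -1 at the base next to the start. These were 2 of 9 members, against 6.49% of 27443 protein-coding promoters of the same length. PHYB and PHYD are also the members most alike in sequence, so these 2 need not be separate cases. The windows of both genes are shown with the G-box in capitals, at chr2:8139506-8139755 (PHYB) and chr4:9199841-9200090 (PHYD), each 5′ to 3′ on its gene's strand. Those of PHYA (chr1:3100820-3101069) and CRY1 (chr4:5723401-5723650) follow because their transcripts showed the greatest falls after the step and neither window holds the motif. Since these windows were chosen by both features, setting them beside PHYB and PHYD cannot link the motif to the falls. Whether the motif goes with a change in level was not tested.
PHYB: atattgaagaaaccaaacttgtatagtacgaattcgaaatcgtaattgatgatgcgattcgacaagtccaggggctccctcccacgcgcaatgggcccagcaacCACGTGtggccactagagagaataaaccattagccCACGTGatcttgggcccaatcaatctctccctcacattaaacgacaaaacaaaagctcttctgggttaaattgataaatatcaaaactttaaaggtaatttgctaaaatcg
PHYD: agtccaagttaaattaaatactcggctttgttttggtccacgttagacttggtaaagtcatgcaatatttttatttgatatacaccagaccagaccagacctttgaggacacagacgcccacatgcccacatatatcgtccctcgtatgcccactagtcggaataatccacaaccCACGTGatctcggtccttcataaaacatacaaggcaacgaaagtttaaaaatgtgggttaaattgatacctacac
PHYA: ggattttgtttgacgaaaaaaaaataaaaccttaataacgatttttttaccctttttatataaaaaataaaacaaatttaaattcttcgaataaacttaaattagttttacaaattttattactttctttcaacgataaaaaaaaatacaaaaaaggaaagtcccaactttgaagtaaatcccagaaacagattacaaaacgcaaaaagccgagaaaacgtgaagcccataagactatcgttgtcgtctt
CRY1: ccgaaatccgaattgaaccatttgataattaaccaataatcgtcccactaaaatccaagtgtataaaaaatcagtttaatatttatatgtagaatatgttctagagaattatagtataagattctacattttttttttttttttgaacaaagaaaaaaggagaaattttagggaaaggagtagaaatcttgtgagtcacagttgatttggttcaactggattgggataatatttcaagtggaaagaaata
The evening element core AATATCT, searched on both strands, occurred before PHYC at -235 and before PHOT2 at -147, and in 10.0% of all promoters. The CCA1-binding site AAAATCT and the I-box core GATAAG occurred in none of the 9 windows, and in 16.5% and 12.3% of all promoters. These matches describe letters only, and binding was not measured. Windows overlap a neighbouring gene for PHYD (AT4G16260), PHYE (AT4G18140) and PHOT2 (AT5G58130).

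Per length of transcript, PHOT1 was the most abundant member, with a median of 82.5 CPM per kb over the 24 replicates. CRY2 followed at 63.5, PHOT2 at 57.4 and CRY1 at 48.9 CPM per kb. Among phytochromes the medians were 24.2 CPM per kb for PHYB, 17.9 for PHYA, 12.9 for PHYE, 10.97 for PHYC and 4.21 for PHYD, with CRY3 at 5.95. PHOT1 lay above CRY2 in 24 of 24 replicates, and PHYE lay above PHYC in 23 of 24. Other neighbours in this order changed places between groups. CRY2 exceeded PHOT2 in 14 of 24 replicates, PHYB exceeded PHYA in 18 and CRY3 exceeded PHYD in 14. Per length of coding sequence PHOT2 came first, with 132 CPM per kb against 95.2 for PHOT1, because its annotated transcript of 6334 bases holds only 2748 coding bases.

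**Figure D1:**
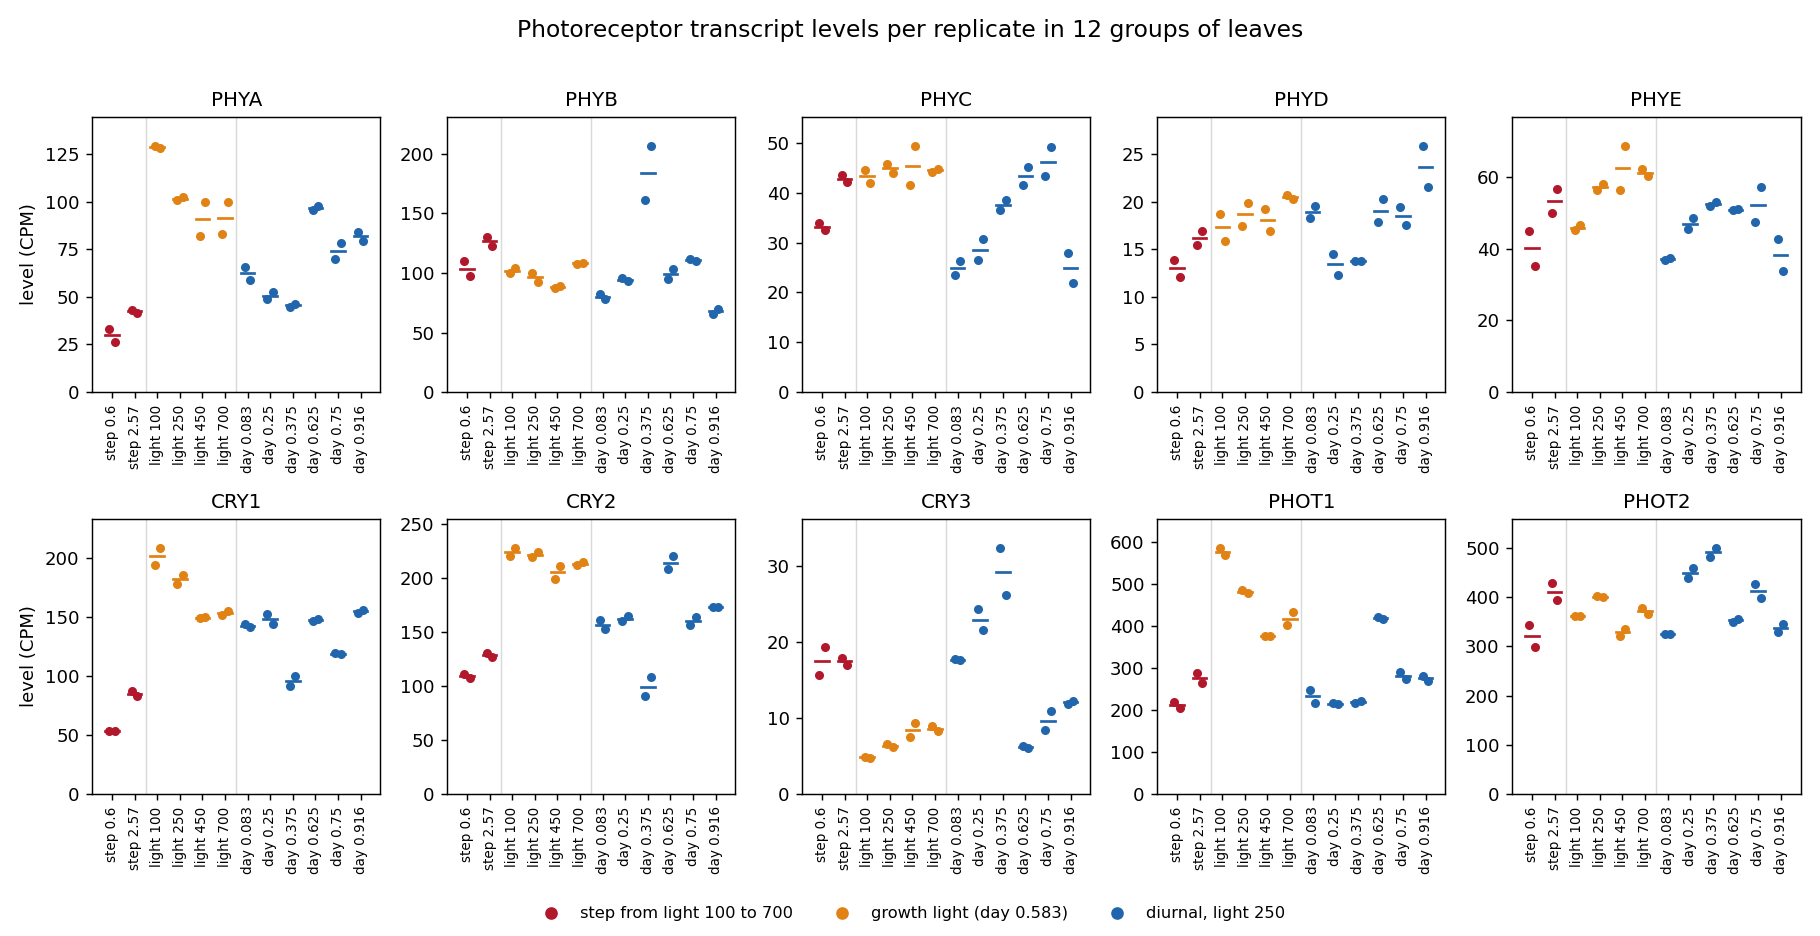
Level of each photoreceptor transcript in CPM (linear axis from 0), with the 2 replicates of a group as points and their mean as a short line, for the step groups (red), the growth light groups (orange) and the diurnal groups at light 250 (blue). PHYA, CRY1 and PHOT1 were lowest after the step at day 0.6 and highest at growth light 100, and CRY3 was lowest at growth light 100.

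Levels below are CPM on one scale for all 24 replicates and are compared only within a gene. The ratio of highest to lowest group mean was 6.07 for CRY3, 4.32 for PHYA, 3.77 for CRY1, 2.73 for PHOT1 and 2.71 for PHYB. It was 2.26 for CRY2, 1.86 for PHYC, 1.82 for PHYD, 1.68 for PHYE and 1.53 for PHOT2. Of the 10 highest group means, 4 were at growth light 100, those of PHYA, CRY1, CRY2 and PHOT1. Of the 10 lowest group means, 5 were at step day 0.6, those of PHYA, PHYD, CRY1, PHOT1 and PHOT2.

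With growth light, PHYA, CRY1 and PHOT1 transcripts fell and PHYE and CRY3 transcripts rose. A gene is said to rise or fall only at an adjusted p under 0.05 in the quasi-likelihood test of edgeR, adjusted by Benjamini-Hochberg over every locus tested, and ± gives the SE of a log2 change. At light 700 against light 100, 5 of 10 members passed, against 40% of all loci tested, a share near the background. Of these 2 rose and 3 fell, against 19.7% and 20.3% of all loci. With scaling by total counts, which raised the median change of all loci by 0.19, 8 members passed, 5 higher and 3 lower, and PHYB (0.28), PHYD (0.43) and PHOT2 (0.23) were then called higher. The directions of the 5 held under both scalings. Shares of all loci, here and below, come from the main setting, so counts of members under other settings have no background beside them.

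PHYA had 129 and 128 CPM at light 100, 101 and 102 at light 250, 81.8 and 99.5 under light 450, and 82.9 and 99.9 at light 700. Both replicates at light 700 lay below both at light 100, and the levels at 450 and 700 overlapped. The log2 change of PHYA at light 700 against light 100 was -0.50 ± 0.10 (adjusted p = 0.0020). PHYE had 45.1 and 46.7 CPM at light 100, 56.3 and 58.1 at light 250, 56.3 and 68.5 under light 450, and 62.1 and 60.3 at light 700. All 6 replicates above light 100 exceeded those at light 100, and the log2 change at light 700 against light 100 was 0.41 ± 0.09 (adjusted p = 0.0028). PHYC, PHYD and PHYE are light-stable phytochromes that act beside PHYB. Those other than PHYE did not pass at light 700: the log2 changes were 0.08 ± 0.07 for PHYB, 0.03 ± 0.09 for PHYC and 0.23 ± 0.11 for PHYD. PHYB passed at light 450 against light 100, with -0.22 ± 0.07 (adjusted p = 0.022), but had 0.017 and did not pass with total counts, and leaving out either replicate of light 100 ended that call (adjusted p = 0.066 and 0.14).

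Among cryptochromes, CRY1 had 194 and 208 CPM at light 100, 178 and 186 at light 250, 149 and 149.7 under light 450, and 152 and 155 at light 700. The replicates of light 100 and 250 lay above those of light 450 and 700, and the log2 change of CRY1 at light 700 against light 100 was -0.40 ± 0.07 (adjusted p = 0.00078). CRY2 had 221 and 228 CPM at light 100 and 212 and 215 at light 700, and its log2 change of -0.08 ± 0.07 missed the threshold (adjusted p = 0.40). CRY3 had 4.87 and 4.79 CPM at light 100, 6.53 and 6.20 at light 250, 7.49 and 9.34 under light 450, and 8.91 and 8.29 at light 700. Its replicates at light 100 were the lowest and did not overlap with any other level. The log2 change of CRY3 at light 700 against light 100 was 0.82 ± 0.15 (adjusted p = 0.00094), a fold of 1.77, and was greater in size than that of 82.9% of loci.

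In growth light, PHOT1 had 586 and 568 CPM at 100, 485 and 479 at 250, 376 and 377 at 450, and 403 and 433 at 700. Its replicates at light 100 lay above all others, and its lowest level was at light 450. Against light 100, the log2 change of PHOT1 was -0.63 ± 0.08 for light 450 (adjusted p = 4.9e-05) and -0.47 ± 0.08 for light 700 (adjusted p = 0.00046). PHOT2 had 362 and 361 CPM at light 100, 403 and 399.6 at light 250, 322 and 335 under light 450, and 378 and 365 at light 700. It followed no order with light and passed in no growth light comparison under TMM scaling, the scaling used throughout. Beside these changes at light 700 against light 100, where 20.3% of all loci fell and 19.7% rose, 4 of 5 leaf markers fell and 1 rose. Of 4 root markers 2 were tested, with 1 higher and 1 lower; of 2 guard cell markers 1 was lower, and the phloem marker SUC2 was higher (0.29). Their part in the result was not tested.

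At light 250 against light 100, 3 of 10 members passed (PHYE higher, PHYA and PHOT1 lower), against 28.7% of all loci, 14.2% higher and 14.4% lower. With any 1 replicate of light 100 or light 250 left out, none of the 3 passed (adjusted p from 0.060 to 0.15). With total counts, 3 were called, all higher: PHYE, CRY3 and PHOT2. At light 450 against light 100, 6 of 10 passed, against 43.7% of all loci, with 2 higher and 4 lower, against 21.4% and 22.3%. With total counts, 3 were higher and 2 lower, and PHYA (-0.27) and PHYB were no longer called. As a slope per doubling of light, 5 passed, against 37.8% of all loci, 2 upward and 3 downward, against 18.2% and 19.6%: -0.19 ± 0.04 for PHYA, 0.15 ± 0.04 for PHYE, -0.16 ± 0.03 for CRY1, 0.31 ± 0.05 for CRY3 and -0.20 ± 0.04 for PHOT1, in log2 units. PHYE lost this call without replicate 1 of light 100 (adjusted p = 0.058) and with light on a linear scale, as a slope per 100 units (0.061, adjusted p = 0.071). With total counts 3 slopes were upward and 2 downward, PHYD (0.15) joined the calls and PHYA (-0.11) left them.

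Over the day at light 250, all 10 members passed the test across the 6 time points, against 60% of all loci tested. CRY3 had the widest fitted range, 2.25 on the log2 scale, wider than that of 91.0% of loci. PHYB followed with 1.45, CRY2 with 1.11 and PHYA with 1.09. PHOT1 had 0.95, PHYC 0.90, PHYD 0.80, CRY1 0.69, PHOT2 0.60 and PHYE 0.51, against a median of 0.85 over all loci. As a check of the day labels, the morning clock genes LHY and CCA1 had 579 and 606 CPM and 861 and 896 CPM at day 0.25, against 0.692 and 0.753 CPM and 3.43 and 4.66 CPM at day 0.75.

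**Figure D2:**
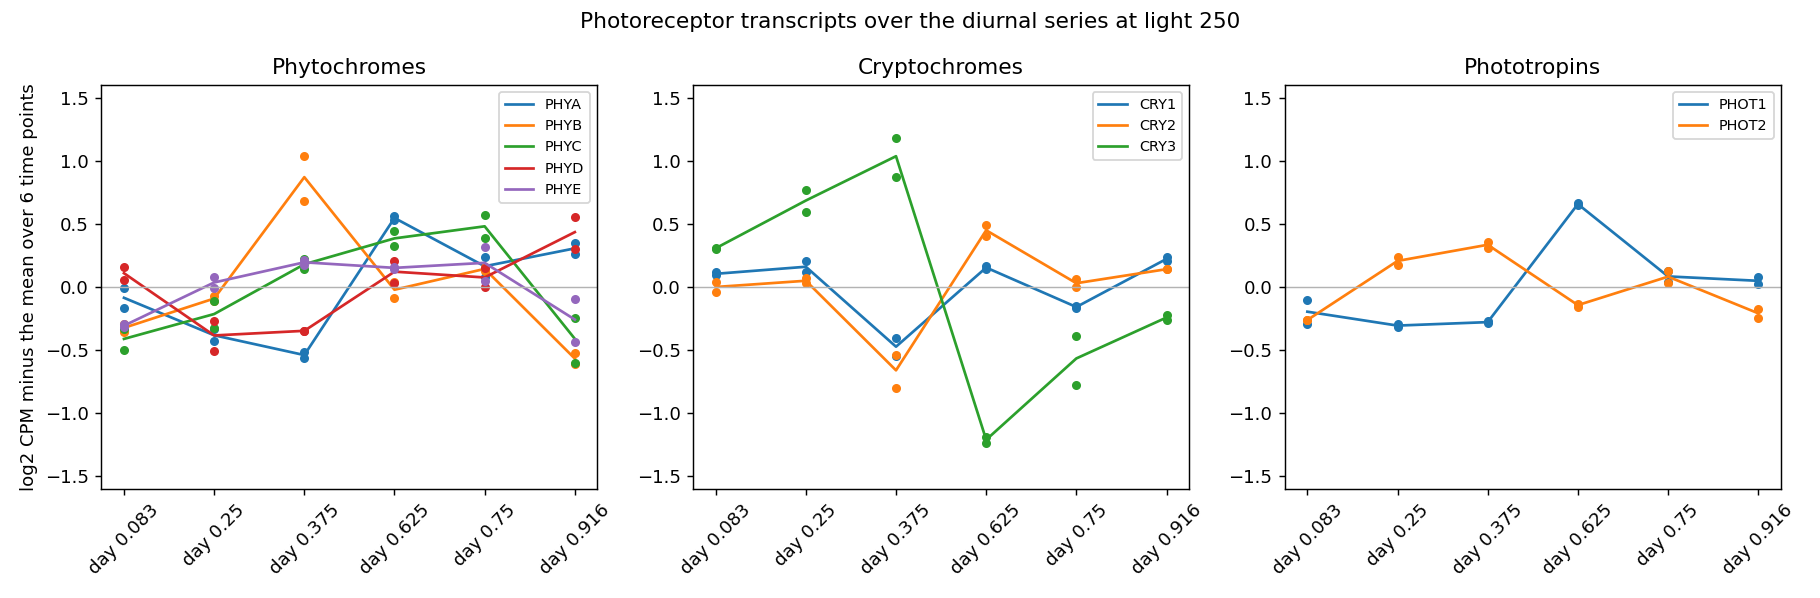
Levels of phytochrome, cryptochrome and phototropin transcripts at the 6 diurnal time points at light 250 (evenly spaced, in order of the day label), as log2 CPM minus the gene's mean over the 6 points; lines join group means and dots are the 2 replicates. PHYB and CRY3 stood highest at day 0.375, where PHYA, CRY1 and CRY2 stood lowest.

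PHYB had 82.1 and 78.5 CPM at day 0.083, 95.5 and 93.1 at day 0.25, 161 and 206 at day 0.375, 94.6 and 103 at day 0.625, 112 and 109.9 at day 0.75, and 65.8 and 69.8 at day 0.916. Its peak at day 0.375 stood clear of all other points although its replicates differed most there. PHYB rose by 0.95 ± 0.11 on the log2 scale at day 0.375 against day 0.25 (adjusted p = 0.00034), and day 0.625 against day 0.375 gave -0.89 ± 0.11 (adjusted p = 0.00011). PHYD, the close relative of PHYB, had 18.2 and 19.5 CPM at day 0.083, 14.5 and 12.3 at day 0.25, 13.8 and 13.7 at day 0.375, 17.9 and 20.2 at day 0.625, 19.4 and 17.5 at day 0.75, and 25.8 and 21.6 at day 0.916. PHYD was thus highest where PHYB was lowest, with no PHYD replicate elsewhere as high. At day 0.375 against day 0.25 PHYD changed by 0.02 ± 0.13. PHYB and PHYD have separate counts despite their 81.0% identity, and whether reads were shared between them was not tested.

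PHYA had 65.6 and 58.9 CPM at day 0.083, 49.0 and 52.4 at day 0.25, 44.7 and 46.2 at day 0.375, 95.3 and 97.7 at day 0.625, 70.0 and 78.1 at day 0.75, and 84.2 and 79.2 at day 0.916. It was lowest at days 0.25 and 0.375 and highest at day 0.625, and day 0.625 against day 0.375 gave a log2 change of 1.09 ± 0.09 (adjusted p = 7.4e-06). PHYC was low at days 0.083 and 0.916, with 23.5 and 26.4 and with 28.0 and 21.9 CPM, and high at day 0.75 with 43.3 and 49.2. Its log2 change at day 0.916 against day 0.75 was -0.90 ± 0.13 (adjusted p = 0.00087). PHYE had the narrowest course of the 10, with 36.8 and 37.3 CPM at day 0.083, where its mean was lowest. Its mean was highest at day 0.375, with 51.8 and 53.1 CPM, and it had 47.5 and 57.2 at day 0.75.

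CRY1 and CRY2 shared a trough at day 0.375. CRY1 had 91.0 and 100.0 CPM there, below its 118 to 156 CPM at the other 5 points. CRY2 had 90.4 and 108 CPM there, below its 153 to 221 CPM at the other points. At day 0.375 against day 0.25, CRY1 fell by 0.64 (SE 0.09, adjusted p = 0.00065) and CRY2 fell by 0.72 (SE 0.10, adjusted p = 0.00082) on the log2 scale, and with PHYB these were the 3 members called, against 18.6% of all loci, 8.43% higher and 10.1% lower.

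CRY3 ran the other way. It had 17.7 and 17.6 CPM at day 0.083, 24.3 and 21.6 at day 0.25, 32.4 and 26.2 at day 0.375, 6.28 and 6.07 at day 0.625, 8.36 and 10.9 at day 0.75, and 11.9 and 12.3 at day 0.916. The replicates of days 0.083 to 0.375 lay above all those of days 0.625 to 0.916. At day 0.625 against day 0.375, CRY3 was 4.74-fold lower, a log2 change of -2.25 ± 0.15 (adjusted p = 1.6e-06).

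The phototropins moved apart over the day. PHOT1 had 248 and 217 CPM at day 0.083, 217 and 214 at day 0.25, 218 and 221 at day 0.375, 422 and 417 at day 0.625, 289.9 and 274 at day 0.75, and 280.4 and 270.1 at day 0.916. A single point, day 0.625, stood above all others. PHOT2 had 326 and 324 CPM at day 0.083, 440.0 and 459 at day 0.25, 483 and 499.9 at day 0.375, 349.5 and 356 at day 0.625, 426 and 399 at day 0.75, and 328 and 346 at day 0.916. PHOT2 was highest at day 0.375, where PHOT1 was low. At day 0.625 against day 0.375, PHOT1 changed by 0.93 ± 0.10 (adjusted p = 3.1e-05) and PHOT2 by -0.48 ± 0.09 (adjusted p = 0.0018).

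That interval, day 0.625 against day 0.375, held the most calls of the diurnal neighbours: 8 of 10 members, against 41.5% of all loci, with 5 higher and 3 lower, against 19.9% and 21.6%. PHYC and PHYE did not pass, and PHYD (0.46 ± 0.13, adjusted p = 0.015) lost its call without either replicate of day 0.375 (adjusted p = 0.061 and 0.070) or without replicate 2 of day 0.625 (0.11). At day 0.75 against day 0.25, 6 of 10 passed, against 45.4% of all loci (21.5% higher, 23.9% lower): PHYA (0.54), PHYC (0.69), PHYD (0.45) and PHOT1 (0.38) were higher and CRY1 (-0.33) and CRY3 (-1.27) lower, in log2 units. CRY1 had -0.13 there and did not pass with total counts, which raised the median change of all loci by 0.23, and 5 were then higher, PHYB (0.43) among them, and 1 lower. PHYD lost that call without replicate 1 of day 0.75 or replicate 2 of day 0.25, and PHOT1 without the last. CRY1 lost it without either replicate of day 0.75 or replicate 1 of day 0.25.

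The remaining neighbouring times held fewer calls. At day 0.916 against day 0.75, 5 of 10 passed, against 19.1% of all loci (10.8% higher, 8.28% lower): PHYB (-0.72), PHYC (-0.90), PHYE (-0.46) and PHOT2 (-0.30) were lower and CRY1 (0.37) higher. Replicates of day 0.916 differed more than those of any other group. Their variance ratio, relative to independent counts, was 89.8, against 5.98 to 31.6 in the other groups. The diurnal comparisons share their spread, so this enters each of them. At day 0.75 against day 0.625, 4 of 10 passed, against 4.78% of all loci (2.07% higher, 2.71% lower): PHYA (-0.38), CRY2 (-0.42) and PHOT1 (-0.57) were lower and CRY3 (0.64) higher. At day 0.25 against day 0.083, PHYD (-0.48) and PHOT2 (0.48) passed, against 7.62% of all loci (4.48% higher, 3.14% lower). At day 0.083 against day 0.916, PHYA (-0.39) and CRY3 (0.55) passed, against 8.5% of all loci (4.91% higher, 3.59% lower). Most of these calls lay near the threshold. At day 0.916 against day 0.75, PHYE and CRY1 lost their calls without replicate 2 of day 0.75. PHYE also lost its call without replicate 2 of day 0.916, and CRY1 without replicate 1 of day 0.75. PHOT2 lost its call without any 1 diurnal replicate other than replicate 2 of day 0.916. PHOT2 also missed the threshold in edgeR with RLE size factors (adjusted p = 0.052) and with only the 2 groups fitted (adjusted p = 0.33). At day 0.75 against day 0.625, all calls were lost without replicate 2 of day 0.75 or either replicate of day 0.625. At day 0.25 against day 0.083, all were lost without either replicate of day 0.083 or replicate 2 of day 0.25. For day 0.083 against day 0.916, all were lost without either replicate of day 0.083 or day 0.625, or replicate 1 of day 0.916.

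After the step from light 100 to light 700, PHYA, CRY1, CRY2 and PHOT1 transcripts were lower and CRY3 transcripts higher than in plants kept at light 100. At step day 0.6 against light 100, 7 of 10 members passed, against 49% of all loci tested, with 1 higher and 6 lower, against 25% and 24%. At step day 2.57 against light 100, 6 of 10 passed, against 41.7% of all loci, with 2 higher and 4 lower, against 22.2% and 19.5%. These comparisons share the light 100 samples with each other and with the growth light comparisons, so their values stand side by side only. Among markers of cell types at step day 0.6 against light 100, 1 of 5 leaf markers was higher and 1 lower, 1 of 2 root markers tested and 1 of 2 guard cell markers were higher, and SUC2 was lower (-0.51). At step day 2.57 against light 100, 3 leaf markers were higher and 1 lower, 1 root marker was higher, 1 flower marker was lower, and the 2 guard cell markers moved opposite ways. Their part in the step results was not tested.

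PHYA had 33.2 and 26.3 CPM at step day 0.6 and 43.2 and 41.7 at step day 2.57, against 129 and 128 at light 100. No other group had PHYA levels as low as step day 0.6. Against light 100, PHYA was 4.30-fold lower at step day 0.6 (log2 change -2.11 ± 0.13, adjusted p = 1.0e-07) and 3.05-fold lower at step day 2.57 (-1.61 ± 0.13, adjusted p = 9.5e-07). CRY1 had 53.2 and 53.5 CPM at step day 0.6 and 86.7 and 83.0 at step day 2.57, against 194 and 208 at light 100. The step groups were the lowest of the 12 for CRY1, and its log2 change against light 100 was -1.91 ± 0.10 at step day 0.6 (adjusted p = 2.3e-08) and -1.26 ± 0.09 at step day 2.57 (adjusted p = 5.3e-07).

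CRY2 had 111 and 107 CPM at step day 0.6 and 130.3 and 127 at step day 2.57, against 221 and 228 at light 100. Its log2 change was -1.04 ± 0.09 at day 0.6 (adjusted p = 2.0e-06) and -0.81 ± 0.09 at day 2.57 (adjusted p = 1.9e-05), although it had not passed between the growth light levels. CRY3 had 15.7 and 19.4 CPM at step day 0.6 and 18.0 and 17.0 at step day 2.57, against 4.87 and 4.79 at light 100. Its step groups did not overlap with light 100, and it was 3.63-fold higher at day 0.6 and 3.59-fold higher at day 2.57 (log2 changes 1.86 ± 0.15 and 1.85 ± 0.15, adjusted p = 7.2e-07 and 8.7e-07).

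PHOT1 had 218 and 206 CPM at step day 0.6 and 289 and 263 at step day 2.57, against 586 and 568 at light 100. Both step groups lay far below light 100, with log2 changes of -1.44 ± 0.10 at day 0.6 (adjusted p = 3.1e-07) and -1.07 ± 0.10 at day 2.57 (adjusted p = 4.1e-06). PHOT2 had 342 and 299 CPM at step day 0.6 and 429 and 394 at step day 2.57, against 362 and 361 at light 100. Its log2 changes of -0.17 ± 0.10 and 0.18 ± 0.10 did not pass (adjusted p = 0.20 for each). Without replicate 1 of step day 0.6, PHOT2 passed as lower at day 0.6 (-0.27, adjusted p = 0.033).

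Among the light-stable phytochromes, PHYB had 110.1 and 97.5 CPM at step day 0.6 and 131 and 123 at step day 2.57, against 100.0 and 104 at light 100. Only day 2.57 passed, with 0.30 ± 0.10 (adjusted p = 0.028), and without replicate 1 of step day 2.57, any 1 replicate of light 100 or light 700, or with total counts, it did not (adjusted p from 0.061 to 0.15). PHYC (-0.38 ± 0.09) and PHYD (-0.41 ± 0.13) were lower at step day 0.6 than at light 100 (adjusted p = 0.0053 and 0.018). PHYC did not pass without replicate 1 of light 100 (adjusted p = 0.061), nor did PHYD without that replicate (0.19) or replicate 2 of step day 0.6 (0.091). PHYE did not pass at either step day, with -0.19 ± 0.12 and 0.21 ± 0.12. Without replicate 1 of step day 0.6, PHYE passed as lower at day 0.6 (-0.38, adjusted p = 0.0074), and without replicate 2 it passed as higher at day 2.57 (0.21, adjusted p = 0.048).

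**Figure D3:**
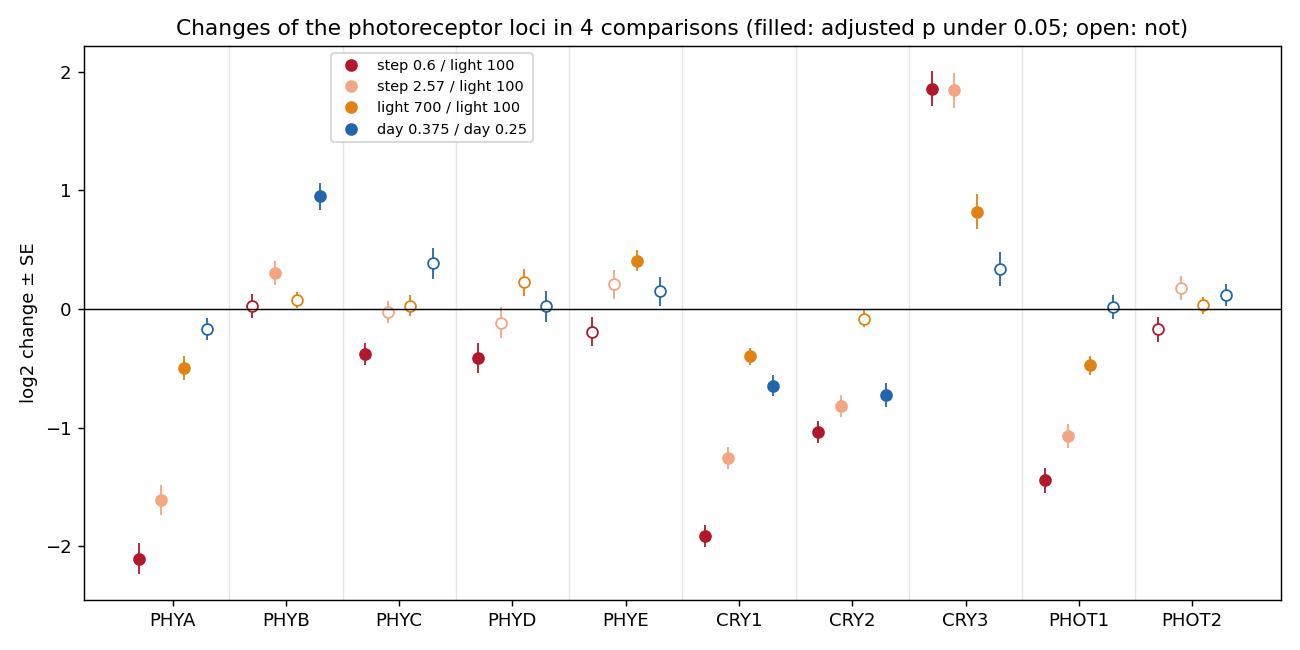
Log2 change ± SE of each photoreceptor locus in 4 comparisons; filled points passed an adjusted p of 0.05 in edgeR's quasi-likelihood test, open points did not, and the first 3 comparisons share the light 100 samples. The step changes of PHYA, CRY1, CRY2, CRY3 and PHOT1 lay farther from 0 than the light 700 changes of the same genes, and with total-count scaling PHYB, PHYD and PHOT2 also passed at light 700.

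Plants moved to light 700 also differed from plants that had grown there. CRY1 had 53.2 and 53.5 CPM at step day 0.6, against 152 and 155 at light 700, and PHYA had 33.2 and 26.3 CPM, against 82.9 and 99.9. CRY3 had 15.7 and 19.4 CPM at step day 0.6, against 8.91 and 8.29 at light 700. At step day 0.6 against light 700, 8 of 10 members passed, against 53.4% of all loci, with 1 higher and 7 lower, against 26.8% and 26.6%. The log2 changes were -1.595 ± 0.130 for PHYA, -0.40 ± 0.09 for PHYC, -0.63 ± 0.13 for PHYD, -0.59 ± 0.12 for PHYE, -1.503 ± 0.096 for CRY1, -0.94 ± 0.09 for CRY2, 1.05 ± 0.14 for CRY3 and -0.96 ± 0.10 for PHOT1. PHYE lay below light 700 after the step, although it had risen with growth light. At step day 2.57 against light 700, 6 of 10 passed, against 46.3% of all loci (24.1% higher, 22.2% lower), with -1.10 for PHYA, -0.33 for PHYD, -0.85 for CRY1, -0.72 for CRY2, 1.03 for CRY3 and -0.59 for PHOT1. PHYD did not pass there without any 1 of the replicates of step day 2.57, light 100 or light 700, with either lane alone, or in DESeq2 (adjusted p = 0.077). Total-count scaling lowered the median change of all loci by 0.25 and 0.27 in these comparisons, and PHOT2 was then called lower at step day 0.6 (-0.42), and PHYC (-0.31) and PHYE (-0.45) lower at step day 2.57.

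Between the step groups, CRY1 was the single member that passed, with 0.65 ± 0.13 (adjusted p = 0.010) at day 2.57 against day 0.6, against 7.93% of all loci (3.29% higher, 4.65% lower). Without either replicate of step day 2.57 it did not pass (adjusted p = 0.11 and 0.060), without replicate 1 of step day 0.6 there were 6 members called, and with the spread shared by all 4 groups 6 members were called, all higher. Levels of clock genes also differed between these groups. LHY had 1.55 and 1.39 CPM at step day 0.6 and 6.50 and 6.04 at step day 2.57, against 1.45 and 1.98 at light 100 and 478 and 490 at diurnal day 0.375. Of 11 clock genes, 5 passed at step day 0.6 against light 100 (49% of all loci), 9 at step day 2.57 against light 100 (41.7% of all loci) and 8 between the step groups (7.93% of all loci). The first count is near the share of all loci. The part of time of day or clock state in the step results was not tested.

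Ratios within a replicate do not depend on the scaling of libraries. The count ratio of PHOT1 to PHOT2 was 1.62 and 1.57 at light 100, 1.21 and 1.20 at light 250, 1.17 and 1.13 under light 450, and 1.07 and 1.18 at light 700. It was 0.636 and 0.688 at step day 0.6, against 1.62 and 1.57 at light 100, and the groups did not overlap. These ratios are of counts and not of levels, since the PHOT2 transcript is longer and its counts can include AT5G58150. Per transcript kb, PHOT1 lay above PHOT2 at step day 0.6, with 61.4 against 50.6 CPM per kb. Per coding kb the order there was reversed, with 70.8 for PHOT1 against 117 for PHOT2. Per transcript kb, PHOT1 lay below PHOT2 at day 0.25 (62.4 against 71.0) and at day 0.375 (63.6 against 77.6). Over the day the group ratio of PHOT1 to PHOT2 ran from 0.446 at day 0.375 to 1.19 at day 0.625.

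The ratio of CRY1 to CRY2 was 0.880 and 0.914 at light 100, 0.811 and 0.828 at light 250, 0.746 and 0.708 under light 450, and 0.715 and 0.722 at light 700. It was 0.478 and 0.498 at step day 0.6, against 0.880 and 0.914 at light 100, and the 2 groups did not overlap. The ratio of PHYA to PHYB was 0.301 and 0.270 at step day 0.6, against 1.29 and 1.23 at light 100, and 0.277 and 0.224 at diurnal day 0.375. PHYB exceeded PHYD in all 24 replicates, with count ratios of 11.7 and 15.01 at day 0.375 and of 2.55 and 3.24 at day 0.916. With 2 replicates a group, these ratios were not tested.

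**Figure D4:**
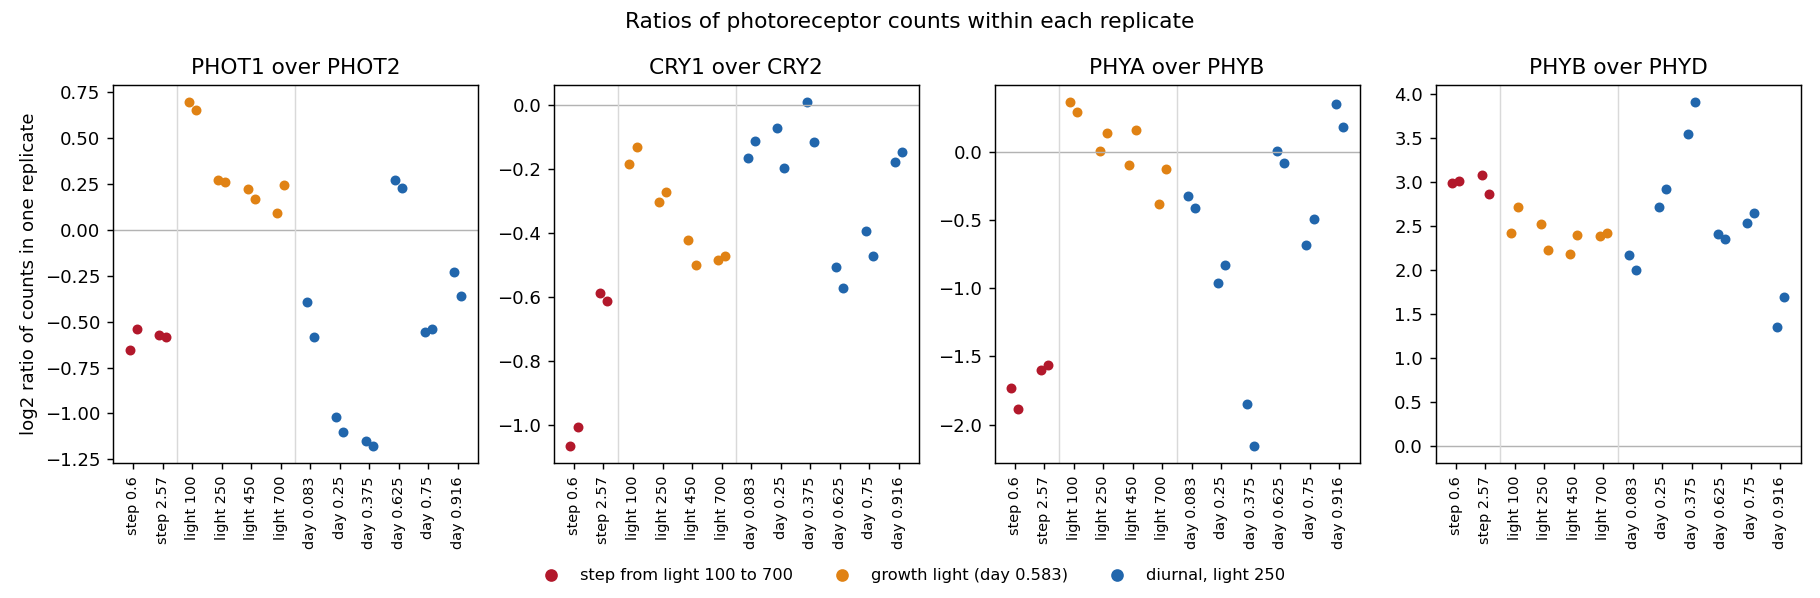
Log2 ratio of counts within each replicate (points) for 4 pairs of photoreceptors in the step (red), growth light (orange) and diurnal (blue) groups; the line marks equal counts, and the ratios are not corrected for length. PHOT1 counts exceeded PHOT2 counts at all 4 growth light levels and at day 0.625, and lay below them in the step groups and at the other time points.

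Over the 12 group means, which share scaling and, in part, time of day, PHYA followed CRY2 (Pearson r = 0.92), CRY1 (0.90) and PHOT1 (0.87) in log2 CPM. CRY3 opposed PHOT1 (-0.93), CRY2 (-0.87) and PHYA (-0.86). PHYC followed PHYE (0.84) and PHYB followed PHOT2 (0.72). Among 13005 loci with a mean log2 CPM of at least 3, those most like PHYA over the 12 groups were GC1 (0.990), GRH1 (0.986) and GDH1 (0.977). Those most like CRY3 were SPS2 (0.990), AT5G04830 (0.986) and AT3G56290 (0.984). Those most like PHOT1 were SPPL2 (0.980), J8 (0.978) and AT1G30200 (0.973). GRH1, SPS2, GDH1 and J8 overlap other genes on the opposite strand, and GDH1 and SPS2 also have near-identical stretches elsewhere.

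Lists of partner genes were tested with TMM scaling alone, and total counts moved the median of all loci at light 700 by more than the medians of these lists. Phytochrome partners were a list of 13 loci: chromophore enzymes, nuclear import factors, the FHY3 and FAR1 factors and PKS proteins among them. At light 700 against light 100, 2 rose (19.7% of all loci) and 5 fell (20.3% of all loci), with a median log2 change of -0.05 against -0.0048 for all loci. At step day 0.6 against light 100, 2 rose (25% of all loci) and 8 fell (24% of all loci), with a median of -0.53 against -0.02. PKS4, a membrane-associated phototropism protein that binds phytochrome, had 0.126 and 0.143 CPM at step day 0.6 and 1.58 and 1.13 at light 700, against 4.56 and 3.62 at light 100. It showed the greatest fall of the list in both comparisons (log2 changes -4.89 ± 0.42 and -1.61 ± 0.31, adjusted p = 1.5e-06 and 0.0012). AT4G34550, annotated in RefSeq as an F-box protein, had 7.29 and 9.12 CPM at step day 0.6 and 3.05 and 2.67 at light 700, against 0.484 and 0.173 at light 100. It showed the greatest rise (4.53 ± 0.32 and 3.01 ± 0.37, adjusted p = 2.8e-07 and 5.4e-05) and, with 3.44, the widest diurnal range of the list, in which 9 of 13 passed across the day, near the 60% of all loci. It overlaps a gene on the opposite strand.

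Of 9 cryptochrome partners and relatives, 4 rose and 2 fell at light 700 against light 100, against 19.7% and 20.3% of all loci. At step day 0.6 against light 100, 3 rose and 3 fell, against 25% and 24%. The median log2 changes were 0.07 and -0.22, against -0.0048 and -0.02 for all loci. CIB1, a bHLH factor that binds CRY2 in blue light, had 3.60 and 2.83 CPM at step day 0.6, against 9.19 and 7.59 at light 100 (log2 change -1.38 ± 0.20, adjusted p = 0.00011). AT3G44450, uncharacterized in RefSeq, showed the greatest rise in both comparisons, with 49.3 and 74.7 CPM at step day 0.6 and 51.6 and 46.5 at light 700, against 19.0 and 24.4 at light 100 (1.52 ± 0.17 and 1.18 ± 0.12, adjusted p = 1.5e-05 and 1.0e-05). The photolyases are structural relatives that repair ultraviolet damage. UVR3 had 1.01 and 0.180 CPM at light 700, against 2.54 and 2.07 at light 100 (-1.98 ± 0.55, adjusted p = 0.012). PHR1 had the widest diurnal range, 3.49, with 22.9 and 20.4 CPM at day 0.375, where CRY3 was also highest, and 2.29 and 1.47 at day 0.625, and it overlaps a gene on the opposite strand. Across the day 8 of 9 passed, against 60% of all loci.

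Of 11 phototropin partners and chloroplast movement genes, none rose and 4 fell at light 700 against light 100, where 40% of all loci were called (19.7% higher, 20.3% lower), so the share called is near the background. At step day 0.6 against light 100, none rose and 8 fell, against 25% and 24% of all loci. The median log2 changes were -0.13 and -0.55, against -0.0048 and -0.02 for all loci. RPT2, a scaffold of phototropin signalling, had 30.3 and 32.4 CPM at step day 0.6 and 58.8 and 60.7 at light 700, against 140.2 and 157 at light 100. Its log2 changes were -2.24 ± 0.11 and -1.32 ± 0.10 (adjusted p = 2.4e-08 and 1.2e-06). JAC1, a J-domain protein of the chloroplast accumulation response, had the widest diurnal range, 2.01, with 93.6 and 95.2 CPM at day 0.25 and 23.5 and 23.8 at day 0.75, and it overlaps a gene on its own strand, as does CIB1. Across the day 8 of 11 passed, against 60% of all loci.

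The other known photoreceptors were counted as 4 loci: the ultraviolet-B receptor UVR8 and the LOV-domain F-box proteins ZTL, FKF1 and LKP2. At light 700 against light 100, 1 of 4 rose and none fell, against 40% of all loci called; ZTL, which controls turnover of clock proteins, changed by 0.23 ± 0.08 (adjusted p = 0.042). At step day 0.6 against light 100, 1 of 4 rose and none fell, against 49% of all loci called: FKF1, which acts in photoperiodic flowering, by 0.29 ± 0.09 (adjusted p = 0.019). FKF1 also had the widest diurnal range, 7.59, with 0.244 and 0.308 CPM at day 0.375 and 56.2 and 52.7 at day 0.625. Its counts are uncertain, since another locus matches it over 498 bases with 89.0% identity. Across the day 3 of 4 passed, against 60% of all loci.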

How the data were processed

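Leaf RNA of 48 GEO samples, 24 replicates on 2 lanes each, was sequenced. The deposited values are raw counts for each transcript in each lane, as the headers and whole numbers of the files show. The submitters' processing notes name Bowtie2 and TAIR10; the counting tool, filters and use of strand are not given in the sources used here. The 3 tables hold 41671 transcripts of 33602 loci, 12 columns recur identically between tables, and the growth light table holds its values in 2 copies. A pair of step day 2.57 columns carry the same name but for a capital, and each was assigned to the replicate whose other lane it matched (variance ratio 1.91, against 7.57 to 7.62 for the other replicate). Of counts from 1 to 10, 70.4% were even, for which the sources used here give no reason; halved counts were tried as an alternative.

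Lanes and transcripts were summed to loci. Counts were tested in edgeR 4.0.16 (R 4.3.3) with TMM scaling (trimmed mean of M values), filterByExpr and quasi-likelihood F tests, adjusted by Benjamini-Hochberg over all loci at 0.05. The growth light fit held 4 groups, the diurnal fit 6, and both step groups with light 100 and 700 formed a fit of their own, each fit with a shared spread; day 2.57 against day 0.6 used the 2 step groups alone. SE came from the F statistic, as log2 change over its square root. CPM share one TMM scaling. Symbols, coordinates and promoters came from RefSeq TAIR10.1, which holds 32835 of the loci, and similarity from BLAST 2.17.0. The promoter window of 1 member is not reported here. The scripts were tested on simulated counts with 200 changed loci. Replicate numbers did not pair samples: deviations of same-numbered replicates correlated by -0.32 to 0.079.

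The members and gene lists were chosen with earlier results of these data known, and the 11 clock genes were added after these values were seen. Partners were named by a rule: the greatest rise and fall per list past the threshold with replicates that did not overlap, at light 700 and step day 0.6 against light 100, and the widest diurnal range; for likeness, the 3 loci of highest Pearson r with the member of widest range in each family. Alternatives were RLE size factors, total counts, DESeq2 1.42.0, other filters, a replicate block, single lanes, single transcripts and halved counts. Others were fits of 2 groups, the test across the day without day 0.916 and leaving out each replicate. Lengths for levels were chosen after seeing the data.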

Additional observations from a re-analysis of the deposited data

How the results depend on the processing

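Each fit was repeated under other settings. Of 957 refits of called values under settings other than leaving out 1 replicate, 903 stayed past the threshold and 53 missed it. PHYB at light 450 against light 100 turned round, at 0.017 with total counts against -0.22. These settings include the test across the day without both replicates of day 0.916. Values not called in the main setting gained a call in 26 refits under these settings. Of 852 refits without 1 replicate, 744 stayed and 108 did not. The cause was not tested. Members called in the test across the day were 10 in every refit. At light 700 against light 100, 5 were called without any 1 replicate and 8 with total counts.

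For step day 2.57 against day 0.6 (1 called) there were 2 with no filter, 2 with a replicate block, 2 with lane 1 alone and 6 with the spread of 4 groups. For day 0.75 against 0.625 (4 called) there were 2 with total counts, 1 with the replicate block, 1 and 2 with lanes 1 and 2, and 1 with only the 2 groups fitted. For day 0.083 against 0.916 (2 called) these gave 1, 1, 1 and 0, and 0. For day 0.25 against 0.083 (2 called) there was 1 with the replicate block, 1 with either lane and 4 with only the 2 groups fitted. For day 0.916 against 0.75 (5 called) there were 3 with lane 2 and 1 with only the 2 groups fitted. By edgeR at an adjusted p of 0.05, leaving out 1 replicate gave 0 to 3 calls for light 250 against light 100, 0 to 3 for day 0.25 against 0.083, 0 to 5 for day 0.75 against 0.625, 2 to 5 for day 0.916 against 0.75, 0 to 2 for day 0.083 against 0.916 and 0 to 6 for step day 2.57 against day 0.6. The replicate block moved no other count of calls by over 1.5 times. Same-numbered replicates did not deviate together, so they share only a number.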
